A study of Mus musculus with 2 samples.

Results

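The genes described here are the ligands and receptors of the VEGF and angiopoietin systems. The 10 members, out of 32285 genes in the deposited count matrices, were chosen by symbol: Vegfa, Vegfb, Vegfc, Pgf, Flt1, Kdr, Nrp1, Angpt2, Tek and Tie1. No measured value entered that choice, although it was made with earlier results of these data known. Single-cell RNA was counted in 2 tumour libraries of KPPC mice, 1 from mice given vehicle and 1 from mice given takinib at 50 mg/kg. Both arms were given their agent for 14 days and are labelled as 6 weeks of age, and pancreatic tumours were digested into cell suspensions. KPPC is the usual name of an engineered mouse model of pancreatic cancer. The exact alleles, the strain, the Cre driver and the number of mice pooled are not given in the sources used here. Takinib is an inhibitor of the kinase TAK1, which relays cytokine signals to NF-kB and to stress-activated kinases.

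VEGF-A, made by tumour cells, myeloid cells and stroma, binds the receptor tyrosine kinases VEGFR1 (Flt1) and VEGFR2 (Kdr) on endothelial cells. Kdr carries most of the growth signal, Flt1 acts largely as a decoy that also binds VEGF-B and PlGF (Pgf), and neuropilin-1 (Nrp1) is a co-receptor shared with semaphorins. VEGF-C acts mainly through VEGFR3 (Flt4) on lymphatic vessels. Angiopoietin-2 (Angpt2) is released by activated endothelium and competes with angiopoietin-1 at the receptor Tie2 (Tek), whose partner Tie1 modulates its signal.

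The libraries differed in more than treatment. After filters 9558 vehicle and 25183 takinib cells were kept, holding 42000538 and 119726977 unique molecular identifiers (UMIs, each standing for 1 captured transcript), with medians of 3556 and 2887 UMIs per cell and 8.70% and 1.79% mitochondrial UMIs. Cells with Y-linked transcripts and no Xist numbered 3087 and cells with Xist alone 1075 in the vehicle library, against 0 and 14324 in the takinib library, so the vehicle library held tumour of both sexes and the takinib library none that was detectably male. Neutrophil-like cells made up 2.81% of the vehicle and 48.0% of the takinib cells, and neutrophil transcripts were found in other classes of the takinib library too. The libraries shared 400 cell barcodes past the filters, 4.05% of the vehicle and 1.49% of the takinib ones. How many would be shared by chance was not computed, so this number is not read as mixing of the libraries. With 1 library per treatment no test between treatments was possible, and the treatment cannot be told apart from the animal, its sex or the preparation. Intervals below are 95% and cover counting error only.

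In GRCm38 (GENCODE M21) the ligand genes lie at chr17:46016993-46032369 (Vegfa), chr19:6982473-6987651 (Vegfb), chr8:54077606-54187096 (Vegfc), chr12:85166635-85177790 (Pgf) and chr8:18690263-18741562 (Angpt2). The receptor genes lie at chr5:147561604-147726011 (Flt1), chr5:75932827-75978458 (Kdr), chr8:128358604-128503363 (Nrp1), chr4:94739289-94874976 (Tek) and chr4:118471191-118490061 (Tie1). Counts cover whole genes, and Nrp1 is the 1 member with an exon overlapping another gene, the microRNA Mir1903 on the same strand.

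Stretches of 250 bases before the annotated start are shown for Vegfa, Flt1 and Kdr, the members in which a match to the NF-kB motif was found. They come from RefSeq (GRCm38.p6) and run 5′ to 3′ on the gene's strand, with the NF-kB match in capitals. They cover chr17:46032378-46032627, chr5:147726012-147726261 and chr5:75978456-75978705, all on the minus strand.
Vegfa: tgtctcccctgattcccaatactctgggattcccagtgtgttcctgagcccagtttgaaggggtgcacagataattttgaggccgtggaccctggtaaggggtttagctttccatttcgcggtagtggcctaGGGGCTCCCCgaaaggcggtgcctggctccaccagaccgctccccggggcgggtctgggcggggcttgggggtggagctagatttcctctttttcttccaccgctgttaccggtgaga
Flt1: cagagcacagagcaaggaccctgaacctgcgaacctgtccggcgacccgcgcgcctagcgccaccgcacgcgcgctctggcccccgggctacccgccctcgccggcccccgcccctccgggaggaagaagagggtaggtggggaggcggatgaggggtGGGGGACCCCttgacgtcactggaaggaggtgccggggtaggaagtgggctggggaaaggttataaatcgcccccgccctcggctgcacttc
Kdr: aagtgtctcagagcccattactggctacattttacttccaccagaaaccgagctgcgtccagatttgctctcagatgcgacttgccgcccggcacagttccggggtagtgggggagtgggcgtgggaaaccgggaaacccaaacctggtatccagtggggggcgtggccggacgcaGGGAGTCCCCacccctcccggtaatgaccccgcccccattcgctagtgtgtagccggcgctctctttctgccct
The first letter of the match lies 118, 92 and 74 bases before the start in Vegfa, Flt1 and Kdr. Of the 9 members with a RefSeq entry (Angpt2 has none in the table), 3 held this motif, which was found in 3.74% of 27025 promoter windows of the same length. The ETS core ACNGGAA, bound by a factor family central to endothelial genes, was present in Flt1 and Tie1 and in 15.1% of all windows. The hypoxia core (ACGTG or GCGTG) was present in 5 of the 9 and in 38.6% of all windows, and the GC box GGGCGG in 7 of 9 and 33.0%. No AP-1 site (TGANTCA) was found in the 9 windows, against 6.85% of all. Both strands were searched, the matches in Flt1 do not overlap, and a match is a description of letters, not of binding.

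In the vehicle tumour Flt1, Kdr, Tek and Tie1 transcripts lay mainly in endothelial-like cells, Nrp1 was spread over several classes, and most Vegfa transcripts lay in epithelial-like and macrophage-like cells. Values are CPM, a gene's UMIs scaled to a total of 1000000 UMIs over all cells of a class and library. They are not scaled to gene length, so each gene is compared only with itself. Cell classes were built from marker genes that include no member, and clusters from variable genes without the members. The endothelial-like class (713 vehicle and 103 takinib cells) had all 11 endothelial markers in both libraries, among them Pecam1 at 1032 and 769 CPM and Cdh5 at 1178 and 712 CPM. In the vehicle class these markers, at 8383 CPM together, exceeded those of any other class. In the takinib class the neutrophil markers (25747 CPM) exceeded the endothelial ones (6002 CPM), and 51 of its 103 cells lay in a group led by neutrophil genes. The label endothelial is thus clear for the vehicle cells and mixed for the takinib cells, and values without that group and 2 smaller mixed groups are given below.

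Vegfa in the vehicle library was 177 CPM (169 to 185) in epithelial-like cells, 150 CPM (113 to 196) in neutrophil-like cells, 86.3 CPM (82.0 to 90.7) in macrophage-like cells and 61.1 CPM (52.4 to 70.8) in fibroblast-like cells. The first of these do not differ beyond counting error, and macrophage-like and then fibroblast-like cells lie lower. It was 16.1 CPM (11.2 to 22.5) in endothelial-like and 15.5 CPM (10.8 to 21.5) in perivascular-like cells. In vehicle barcodes of 1 to 100 UMIs, which hold free RNA rather than cells, Vegfa stood at 95.04 CPM (72.9 to 122), with an interval wholly above those of endothelial-like, perivascular-like, fibroblast-like, monocyte-like, T-like and B-like cells. The macrophage-like level lay inside that interval, the neutrophil-like one overlapped it and only the epithelial-like one of these classes lay wholly above it. The free-RNA level was close to the 96.4 CPM of all kept vehicle cells, so a class well below that average also lies below free RNA. Lying below it therefore does not show that a class holds only free RNA.

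Vegfb, a ligand of Flt1, had its highest vehicle level in perivascular-like cells at 32.7 CPM (25.7 to 41.1), overlapping fibroblast-like cells at 30.02 CPM (24.0 to 37.0) and B-like cells at 28.8 CPM (16.5 to 46.8). Vegfc was 48.8 CPM (39.9 to 59.2) in endothelial-like, 26.2 CPM (20.7 to 32.8) in fibroblast-like and 13.3 CPM in epithelial-like cells of the vehicle library. Pgf was the most perivascular ligand, at 86.2 CPM (74.5 to 99.2) in perivascular-like against 19.0 CPM (13.5 to 25.8) in endothelial-like vehicle cells, and those perivascular-like cells held 54.0% of its vehicle UMIs. Angpt2 was 116 CPM (102 to 132) in endothelial-like and 54.8 CPM (45.6 to 65.4) in perivascular-like vehicle cells and at most 2.61 CPM in every other class of at least 50 vehicle cells.

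**Figure D1:**
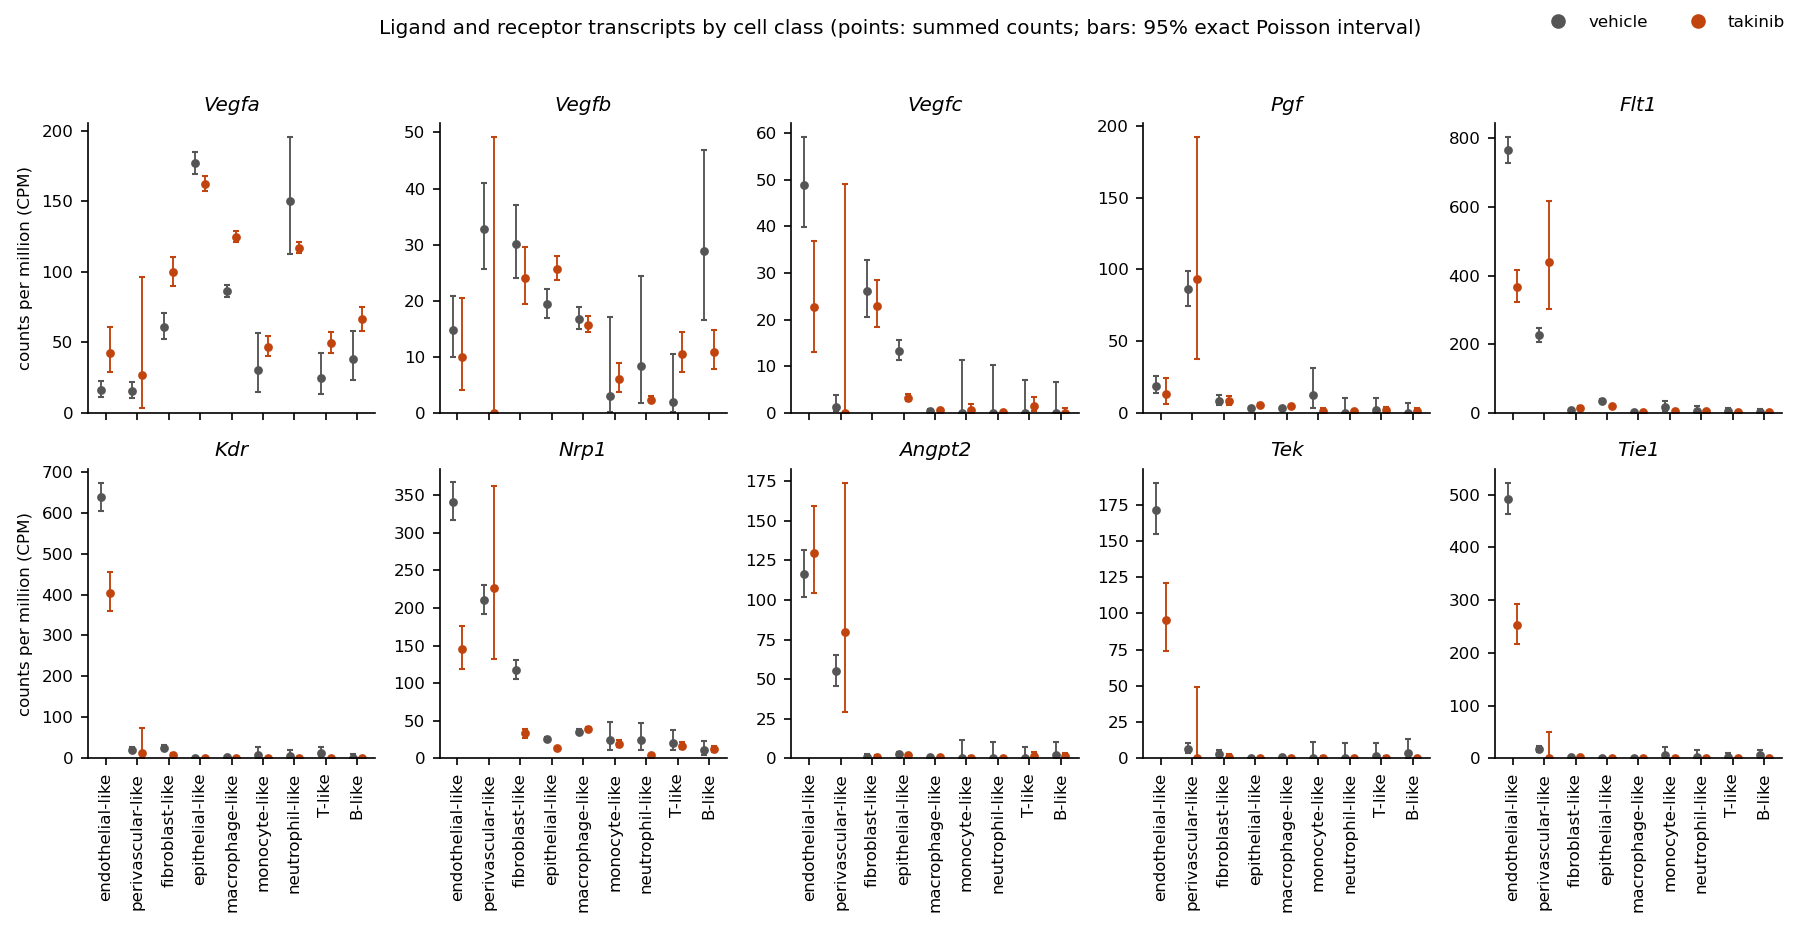
CPM of each of the 10 genes by cell class in the vehicle (grey) and takinib (orange) library, with 95% exact Poisson intervals on a linear axis for each gene. Kdr, Tek and Tie1 stand high in endothelial-like cells, Flt1, Nrp1 and Angpt2 also in perivascular-like cells, and Vegfa in epithelial-like and myeloid cells. The takinib perivascular-like points rest on 14 cells.

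Kdr, Tie1 and Tek were close to endothelial in both libraries. Endothelial-like cells held 86.6% of the vehicle and 71.9% of the takinib Kdr UMIs, 91.6% and 83.2% of those of Tie1, and 88.5% and 70.5% of those of Tek. Flt1 was spread wider: 61.2% of its vehicle UMIs lay in endothelial-like, 19.3% in perivascular-like and 15.2% in epithelial-like cells, against 26.1%, 3.33% and 41.1% of its takinib UMIs. Nrp1 was the least endothelial receptor, with 27.3% of its vehicle and 4.08% of its takinib UMIs in that class. A further 24.0% of its vehicle UMIs lay in macrophage-like, 18.1% in perivascular-like, 12.9% in fibroblast-like and 11.3% in epithelial-like cells. In the takinib library macrophage-like cells held 46.0% of the Nrp1 UMIs.

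**Figure D2:**
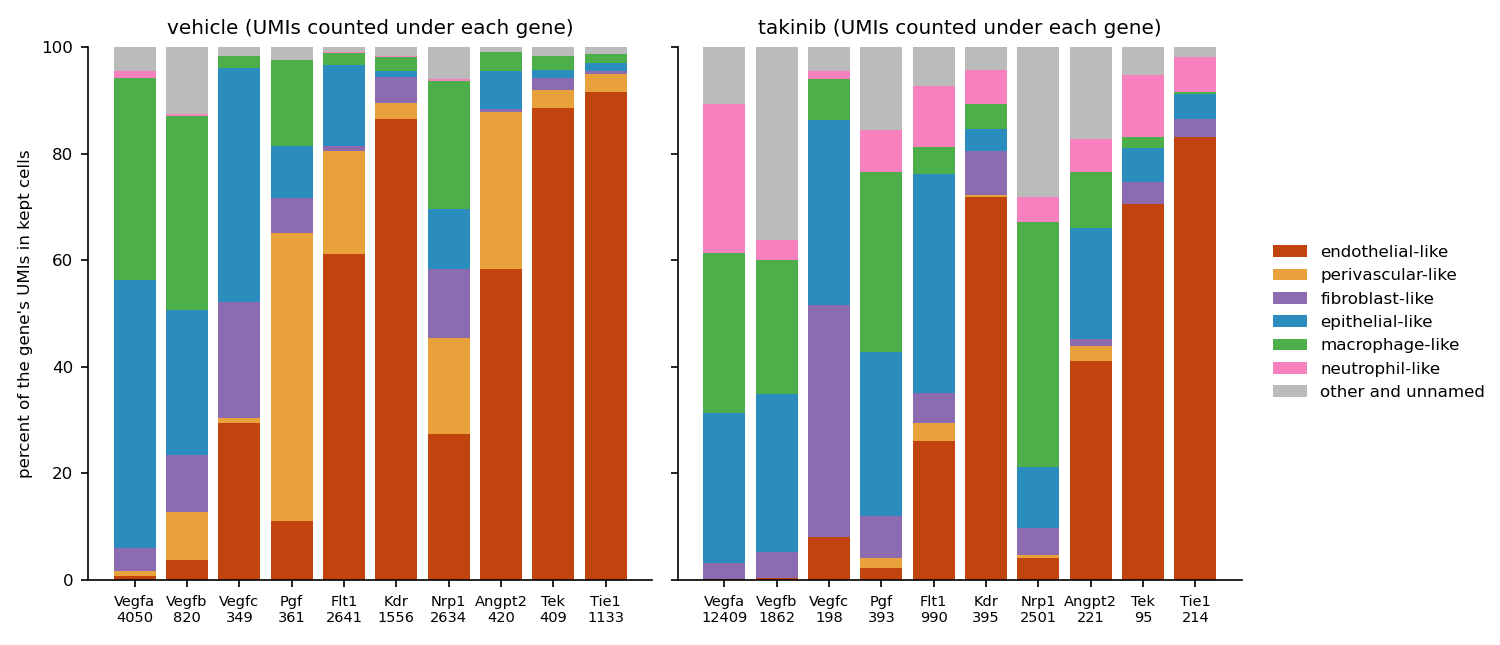
Percent of each gene's UMIs found in each cell class, in the vehicle (left) and takinib (right) library, with the gene's UMI count in kept cells under its name. The endothelial-like part of Flt1 is 61.2% on the left and 26.1% on the right, and the neutrophil-like part of Vegfa 1.33% and 28.0%.

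Over all kept cells the receptors were far lower in the takinib library while Vegfa was level. Flt1 stood at 62.9 CPM in the vehicle and 8.27 CPM in the takinib library, Kdr 37.0 and 3.30 CPM, and Nrp1 62.7 and 20.9 CPM. On the scale log2 of takinib over vehicle, each CPM plus 10, these are differences of -2.00, -1.82 and -1.24. Vegfa was 96.4 and 104 CPM (log2 0.09). Of the 4 members with a mean of at least 20 CPM, 3 were past 2-fold and all 3 lower, against 10.6% of 6271 genes past 2-fold in either direction and 5.58% lower. Tie1 (27.0 and 1.79 CPM), Tek (9.74 and 0.79 CPM), Angpt2 (10.0 and 1.85 CPM), Vegfc (8.31 and 1.65 CPM) and Pgf (8.60 and 3.28 CPM) did not reach that mean.

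These sums move with the number of vessel cells captured. Endothelial-like cells were 7.46% (6.94 to 8.005) of the vehicle and 0.409% (0.334 to 0.496) of the takinib cells, an 18.2-fold lower share. Perivascular-like cells were 6.13% (5.66 to 6.63) and 0.0556% (0.0304 to 0.0933), the latter being 14 cells. Among cells neither neutrophil-like nor unnamed, the log2 difference of the endothelial-like share was -3.11 in place of -4.19 and that of the perivascular-like share -5.71 in place of -6.79. Whether fewer such cells were present in the tumour or fewer survived digestion cannot be told apart from these files.

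Within endothelial-like cells the receptors were lower by smaller amounts. Vehicle cells had Flt1 at 766 CPM (729 to 804) and takinib cells at 367 CPM (324 to 415), 0.480 times the vehicle level (0.419 to 0.547). Nrp1 was 341 CPM (317 to 367) and 145 CPM (118 to 176), 0.425 times. Tie1 was 492 CPM (463 to 523) and 253 CPM (217 to 293), 0.515 times. Their intervals do not overlap between the libraries.

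Vehicle cells had Tek at 172 CPM (154 to 190) and takinib cells at 95.4 CPM (73.9 to 121), and Kdr 639 CPM (605 to 674) and 404 CPM (359 to 454). Kdr, the main signalling receptor, had the smallest difference of the 5 receptors at 0.633 times (0.555 to 0.720). Angpt2 was 116 CPM (102 to 132) and 130 CPM (104 to 159), with overlapping intervals. Vegfc was 48.8 CPM (39.9 to 59.2) and 22.8 CPM (13.0 to 37.0). Vegfa was 16.1 CPM (11.2 to 22.5) and 42.7 CPM (28.8 to 61.0), on 34 and 30 UMIs. Vegfb (14.7 and 9.96 CPM) and Pgf (19.0 and 12.8 CPM) were under the minimum mean of 20 CPM.

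Of the 8 members with that mean, 3 were past 2-fold on the scale with 10 CPM added. They were Vegfa higher (log2 1.01), and Flt1 (log2 -1.04) and Nrp1 (log2 -1.18) lower. Vegfc was log2 -0.84 on that scale and 0.466 times the vehicle level (0.257 to 0.794) without the addition. Over 6867 genes the background was 9.26% past 2-fold, 4.63% in each direction, with a median log2 difference of -0.11. Flt1, Nrp1 and Vegfa are all near the limit, and Tie1 at -0.93 lies just inside it.

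**Figure D3:**
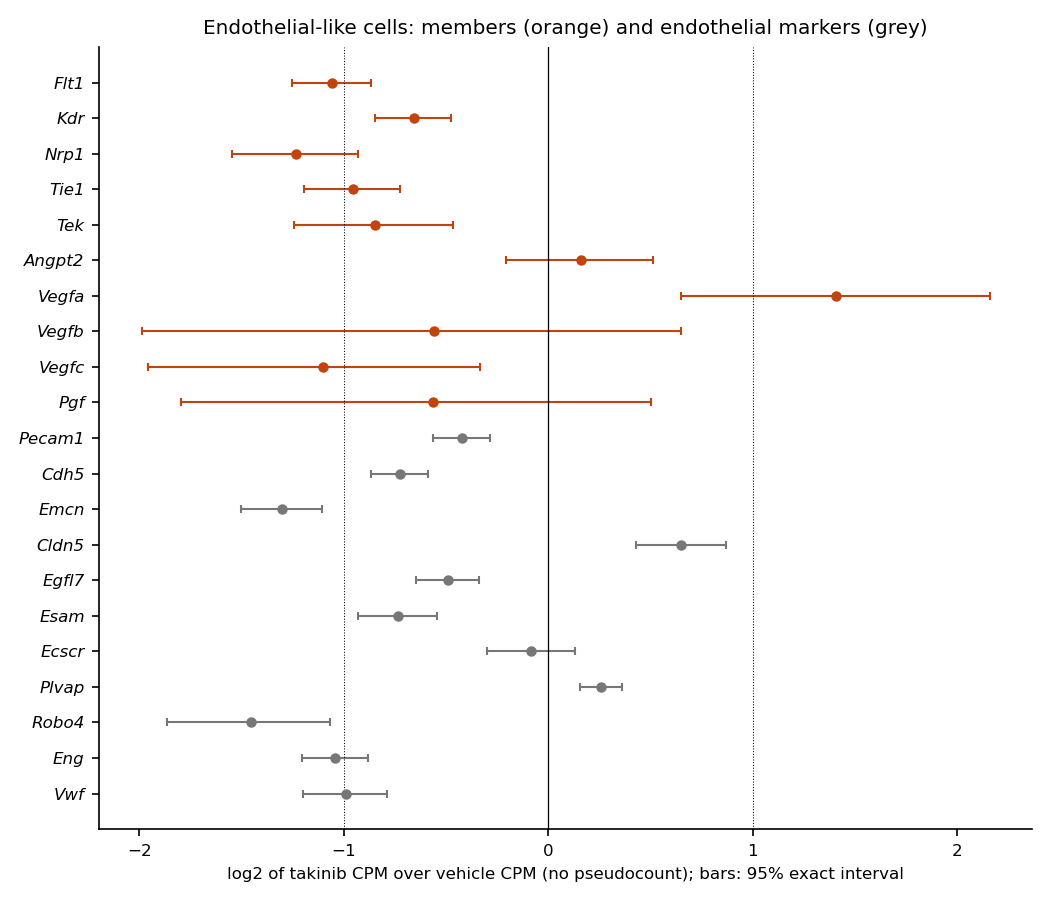
Log2 of takinib over vehicle CPM in endothelial-like cells, without a pseudocount, for the 10 members (orange) and 11 endothelial markers (grey), with 95% exact intervals and dotted lines at 2-fold. The 5 receptors lie below 0, Angpt2 has an interval across 0 and Vegfa lies above 0. Vegfc, 0.466 times the vehicle level without the pseudocount, lies past the lower 2-fold line. 9 of the 11 markers also lie below 0.

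The endothelial markers were lower as well. Summed, the 11 markers stood at 8383 CPM in the vehicle and 6002 CPM in the takinib cells of the class, 0.716 times, and 9 of 11 were lower, from Robo4 (log2 -1.36) to Ecscr (log2 -0.08), with Cldn5 (0.63) and Plvap (0.26) higher. Per 1000 marker UMIs, Kdr was 76.2 in vehicle and 67.3 in takinib, 0.884 times (0.775 to 1.01). By the same measure Tek was 0.776 times (0.589 to 1.01), Tie1 0.719 (0.610 to 0.844), Flt1 0.670 (0.585 to 0.764), Nrp1 0.594 (0.478 to 0.732) and Angpt2 1.56 (1.21 to 1.99). Relative to the other endothelial transcripts, then, the intervals of Kdr and Tek include no difference and those of Tie1, Flt1 and Nrp1 lie below it.

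Neutrophil transcripts differed alongside these values. Together the 9 neutrophil markers stood at 458 CPM in the vehicle cells, with 1 marker at 0, and at 25747 CPM in the takinib cells, with none at 0. S100a8 and S100a9 made up 23791 CPM of the latter. The macrophage markers (11) summed to 2679 and 756 CPM and the lymphatic endothelial markers (5) to 597 and 1217 CPM. The median depth was 2282 and 4995 UMIs per cell and the median mitochondrial share 11.5% and 2.91%. Among cells of at most 10% mitochondrial UMIs only Vegfa stayed past 2-fold (log2 1.18), with Flt1 at -0.77 and Nrp1 at -0.99. Against the 69 vehicle endothelial-like cells of female origin 6 members were past 2-fold, Angpt2 among them at log2 2.05. The part of depth, mitochondrial share and sex in the result was not tested.

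With every cell thinned to 1000 UMIs, the share of endothelial-like cells with a Kdr UMI was 45.0% in vehicle and 32.0% in takinib. It was 2.38% and 0.0791% in T-like cells, which should lack it, at median depths of 1424.5 and 1895.5 UMIs. The thinned shares were 48.9% and 29.1% for Flt1, 40.5% and 25.2% for Tie1, 30.3% and 17.5% for Nrp1 and 16.1% and 10.7% for Tek. Without thinning the share was higher in takinib by 2.27 percentage points for Kdr and 6.40 for Tek. It stayed lower for Flt1, Tie1 and Nrp1. With all UMIs, 54.6% (50.8 to 58.3) of vehicle and 49.5% (39.5 to 59.5) of takinib endothelial-like cells held both Flt1 and Kdr. At least 1 of Flt1, Kdr, Tek and Tie1 was found in 95.4% and 93.2% of them. All 4 were found in 17.1% and 17.5%, and neither Flt1 nor Kdr in 11.6% and 17.5%.

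The members divided the endothelium. Clustering the endothelial-like cells alone, again without the members among the variable genes, gave 10 groups, described by their leading genes. The 84 vehicle cells led by Gja5 and Gja4, known from arteries, carried Vegfc at 224 CPM (159 to 308), Flt1 at 1417 CPM and Angpt2 at 0 counts, which allows up to 17.7 CPM. The 101 led by Esm1 and Apln, known from sprouting tips, carried Angpt2 at 288 CPM (242 to 340), Pgf at 64.1 CPM (43.6 to 91.0) and Flt1 at only 494 CPM (434 to 561).

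The 46 vehicle cells led by Ccl21a and Lyve1, known from lymphatic vessels, had Angpt2 at 417 CPM (316 to 540), Kdr at 468 CPM, Tie1 at 446 CPM, Flt1 at 36.6 CPM (11.9 to 85.4) and Nrp1 at 0 counts, which allows up to 22.0 CPM. The 118 led by Madcam1, Ackr1 and Selp, known from veins, had the highest Tek, at 337 CPM (278 to 406). The 35 led by Scgb3a1, Cxcl12 and Rbp7, with Cd36 and Btnl9 among their leading genes, had the highest Flt1, at 2109 CPM (1809 to 2445), and Kdr, at 1390 CPM (1149 to 1667). Tie1 ranged from 383 to 573 CPM over these 5 groups and was 650 CPM (586 to 720) in the largest vehicle group, of 263 cells. Vegfc and Angpt2 thus peaked in different endothelial groups, and Flt1 and Nrp1 were scarce or not detected in the Ccl21a-led cells, where Kdr, Tie1 and Angpt2 were present.

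**Figure D4:**
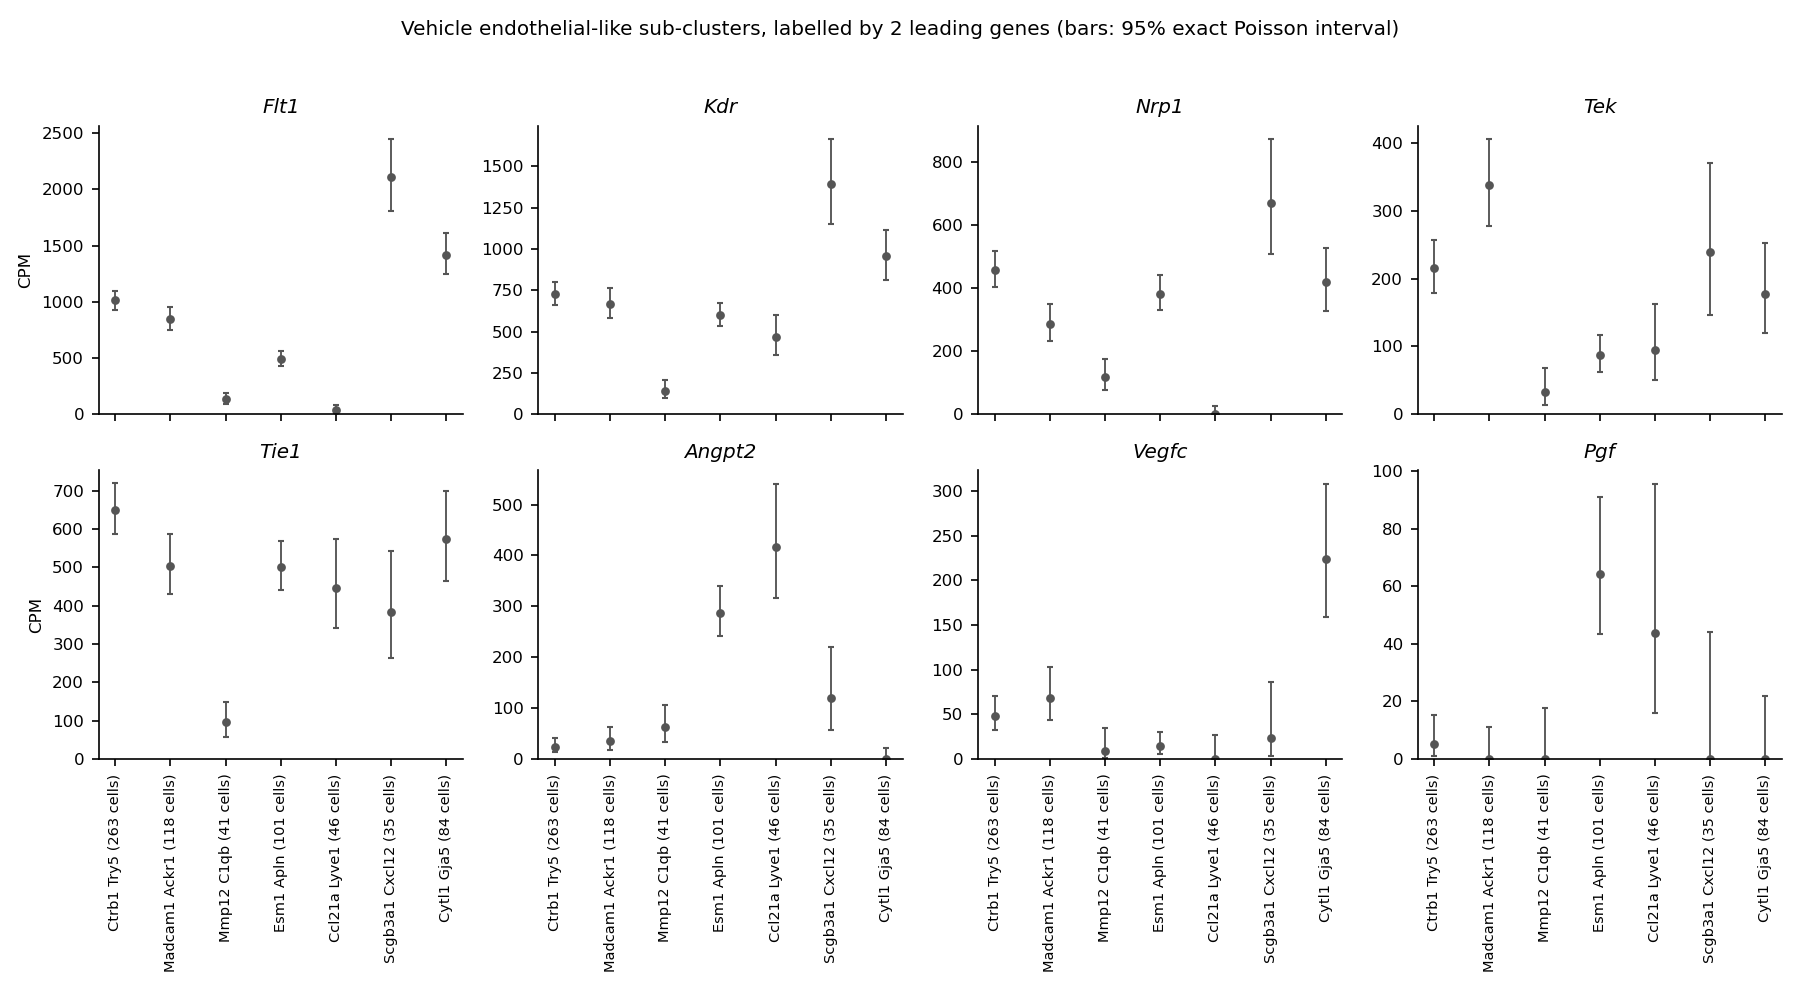
CPM of 8 members in the vehicle endothelial-like groups of at least 30 cells, named by 2 leading genes, with 95% exact Poisson intervals. Angpt2 is high in the Esm1-led and Ccl21a-led groups, Vegfc in the group with Gja5, and Flt1 ranges from 36.6 CPM in the Ccl21a-led to 2109 CPM in the Scgb3a1-led cells.

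The takinib cells fell into other groups than the vehicle cells. Of the 103, 51 (49.5%) lay in a group whose leading genes included S100a8, S100a9 and Retnlg, which held 5 vehicle cells, and 23 (22.3%) lay in the Scgb3a1-led group. The Esm1-led group held 101 of the 713 vehicle (14.2%) and 3 of the 103 takinib cells (2.91%), and the largest vehicle group, 263 cells led by the acinar transcripts Ctrb1 and Try5, held 3 takinib cells. In the Scgb3a1-led group the vehicle cells had Flt1 at 2109 CPM and the takinib cells at 667 CPM, Kdr 1390 and 623 CPM, and Nrp1 671 and 272 CPM. Tie1 was 383 CPM (262 to 541) and 351 CPM (251 to 478). Tek was 240 CPM (146 to 370) and 114 CPM (60.8 to 195), and for both the intervals overlap.

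Leaving out the 3 groups in which markers of another class outweighed the endothelial ones (an alternative chosen after seeing the data) left 655 and 48 cells. Then 1 of the members was past 2-fold: Nrp1 (log2 -1.14). Flt1 was -0.98, Tie1 -0.73, Kdr -0.46 and Vegfa 0.36, so Vegfa was not past 2-fold without these 3 groups. The cells kept still carried transcripts of other classes, such as acinar ones in the group led by Ctrb1 and Try5. Angpt2 depended on the Ccl21a-led cells: its log2 difference was 0.15 with all cells, 0.97 without the 3 groups and -0.52 without the Ccl21a-led cells.

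Perivascular-like cells numbered 586 and 14, too few in takinib for a comparison. The perivascular markers summed to 14152 CPM in the vehicle cells and 8588 CPM in the takinib cells, beside 6499 and 11042 CPM for the fibroblast markers, so in takinib the fibroblast markers were the higher. The 14 held 33 Flt1, 17 Nrp1, 7 Pgf and 6 Angpt2 UMIs, at 440 CPM (303 to 618), 227 CPM (132 to 363), 93.3 CPM (37.5 to 192) and 80.0 CPM (29.4 to 174), beside 226, 211, 86.2 and 54.8 CPM in vehicle. Of the 5 members with the minimum mean none was past 2-fold, against 19.0% of 6477 genes. Vegfa, 1 of the 5, rests on 2 takinib UMIs, and with 14 cells this count is a description only. The vehicle cells carried Kdr at 20.3 CPM (14.9 to 27.1), Tie1 at 16.8 CPM and Tek at 6.19 CPM. The free-RNA levels of these 3 were 39.9, 22.99 and 19.9 CPM. Epithelial-like vehicle cells lay far lower, at 1.66, 1.48 and 0.523 CPM. The endothelial markers summed to 934 CPM in the perivascular-like vehicle cells, and the source of these receptor counts was not tested.

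Fibroblast-like cells (698 and 349) had Nrp1 at 117 CPM (105 to 130) in vehicle and 33.2 CPM (27.6 to 39.6) in takinib, log2 -1.56, the 1 member of 4 past 2-fold, against 10.6% of 6508 genes in either direction and 6.15% lower. Finer clustering split the class in 2 parts with opposite directions of Nrp1. In cells with higher Postn (438 vehicle and 54 takinib), Nrp1 was 149 and 218 CPM, 1.47 times (1.06 to 1.98). In the others (260 and 295), whose mesothelial markers summed to 619 and 293 CPM, Nrp1 was 66.6 and 20.8 CPM, 0.313 times (0.223 to 0.438), and Kdr 53.1 and 9.14 CPM. The latter group was 37.2% of the vehicle and 84.5% of the takinib fibroblast-like cells. Vegfa was 58.8 and 47.1 CPM in the Postn-high cells, 0.801 times (0.388 to 1.49) on 11 takinib UMIs. In the others it was 64.8 and 103 CPM, 1.59 times (1.24 to 2.08), and in the class 61.1 and 99.8 CPM.

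The ligand Vegfa was slightly lower in takinib epithelial-like cells and higher in macrophage-like cells. Epithelial-like cells (1714 and 1888) had 177 and 163 CPM, 0.919 times (0.870 to 0.971). Macrophage-like cells (4214 and 4397) had 86.3 and 125 CPM, 1.447 times (1.36 to 1.54). Neutrophil-like cells (269 and 12092) had 150 and 117 CPM, 0.780 times (0.596 to 1.04). T-like cells had 24.6 and 49.5 CPM, B-like cells 37.8 and 66.3 CPM and monocyte-like cells 30.6 and 46.8 CPM. The neutrophil markers summed to 573 and 17640 CPM in T-like, 705 and 37264 CPM in B-like and 3322 and 13189 CPM in monocyte-like cells. They were also higher in takinib macrophage-like cells (321 and 8312 CPM) and in epithelial-like cells (119 and 10232 CPM), where Vegfa was lower. Their part in the Vegfa differences was not tested.

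With 10 CPM added, no member was past 2-fold in epithelial-like (of 3, against 5.67% of genes), macrophage-like (of 2, against 6.24%) or monocyte-like cells (of 2, against 8.78%). Nor was any in neutrophil-like (of 1, against 27.4%), T-like (of 1, against 5.95%) or B-like cells (of 1, against 9.42%). Without the addition T-like Vegfa was 2.01 times the vehicle level (1.14 to 3.85). Thinned shares with a Vegfa UMI were 13.8% and 13.9% in epithelial-like, 7.59% and 11.03% in macrophage-like and 12.6% and 10.1% in neutrophil-like cells, against 0.794% and 3.40% in T-like cells.

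The class values of Vegfa hid differences between clusters. Epithelial-like cells led by Hmga2 and Cdkn2a (804 and 707) had the highest Vegfa, 266 CPM (254 to 279) in vehicle and 215 CPM (206 to 225) in takinib. Those led by the gastric genes Gkn3 and Tff2 (770 and 873) had 79.5 CPM (71.2 to 88.6) and 119 CPM (113 to 126). The clusters thus differed in opposite directions.

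Macrophage-like cells lay mostly in different clusters in the 2 libraries. The Alox15-led and Dcstamp-led clusters held 2226 and 1624 of the 4214 vehicle cells, and the Ccl8-led and U90926-led clusters 1690 and 1884 of the 4397 takinib cells. Vegfa was 87.5 and 81.1 CPM in the Alox15-led, 88.7 and 98.0 CPM in the Ccl8-led, 96.4 and 150 CPM in the Dcstamp-led and 17.6 and 36.2 CPM in the Top2a-led, cycling cluster. The 1884 takinib cells led by U90926, Ptges and Saa3, with 4 vehicle cells beside them, had 167 CPM (161 to 175). Restricted to clusters holding 50 or more cells from both libraries, the macrophage-like difference was 0.08 on the log2 scale in place of 0.49, and with at most 10% mitochondrial UMIs it was -0.19. An unnamed cluster led by Gpnmb and Lpl (506 and 1864 cells) had 30.5 and 26.9 CPM.

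Takinib neutrophil-like clusters differed as well. Vegfa was 41.7 CPM (35.0 to 49.3) in the 656 cells led by Ngp and Ltf, genes of immature granules. It was 158 CPM (149 to 166) in the 2314 led by Ccl4 and Acod1 and 130 CPM (122 to 138) in the 4596 led by Ccl3. The 3505 led by Ppy, Cxcr2 and G0s2 had 89.5 CPM (82.6 to 96.8). The endocrine marker Ins2 was also among their leading genes, and endocrine was the runner-up class (score 0.440 against 0.623). The last cluster held 256 of the 269 vehicle cells, at 148 CPM (110 to 196). By numbers, neutrophil-like cells thus held 28.0% of all takinib Vegfa UMIs (epithelial-like 28.1%, macrophage-like 29.9%), against 1.33% in vehicle (50.1% and 37.9%).

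**Figure D5:**
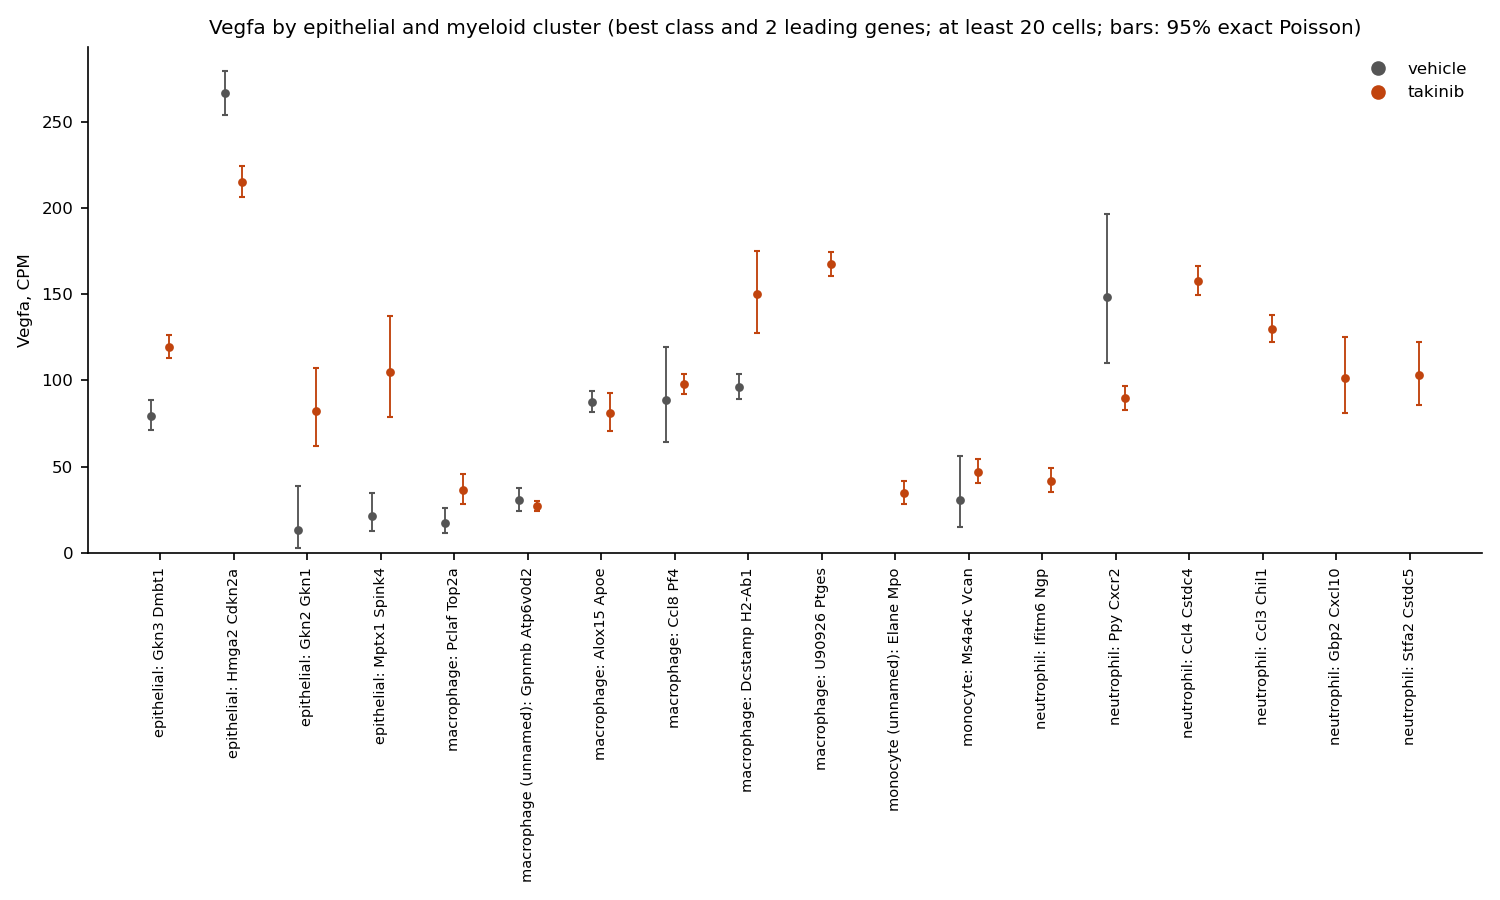
Vegfa in CPM by epithelial and myeloid cluster of at least 20 cells, named by best class and 2 leading genes, in vehicle (grey) and takinib (orange), with 95% exact Poisson intervals. The Hmga2-led epithelial cluster is highest at 266 and 215 CPM, and the U90926-led macrophage cluster stands at 167 CPM in takinib.

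Flt1 was also read in 1 epithelial cluster. The Hmga2-led epithelial cluster had 373 and 345 Flt1 UMIs, at 59.2 and 34.6 CPM, beside 5.77 and 5.43 CPM in the Gkn3-led cluster. Kdr was 1.66 and 0.746 CPM in epithelial-like cells, and Nrp1 31.1 and 19.6 CPM in the Hmga2-led cluster. The free-RNA level was 52.1 CPM (36.1 to 72.8) for Flt1, 39.9 CPM for Kdr and 58.3 CPM for Nrp1, and none of these vehicle levels stood clear of it. Kdr in this class and Flt1 in the Gkn3-led cluster lay far below it. It is thus not a floor for cells, and the part of free RNA was not tested. In the class, vehicle cells of female origin (206) had Flt1 at 9.76 CPM, those of male origin (823) 41.9 CPM and takinib cells 19.0 CPM. The class difference (log2 -0.64) was 0.55 against the female cells and -0.01 among cells of at least 2000 UMIs and 1000 genes. Epithelial-like Vegfc stood at 13.3 CPM (11.3 to 15.6) in the vehicle library and 3.22 CPM (2.50 to 4.07) in the takinib library, on 153 and 69 UMIs.

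Nrp1 in macrophage-like cells, a known site of this co-receptor in tumours, was 35.5 and 38.7 CPM, 1.09 times (0.989 to 1.20). The vehicle level lay below that of free RNA (58.3 CPM, 41.2 to 80.0), which was close to that of all kept vehicle cells (62.7 CPM). Within each of the 4 clusters with at least 50 cells of both libraries Nrp1 was lower in takinib, at 0.707 times (0.541 to 0.942) in the Ccl8-led, 0.756 times (0.586 to 0.966) in the Alox15-led, 0.675 times (0.391 to 1.10) in the Dcstamp-led and 0.941 times (0.627 to 1.42) in the Top2a-led cells. The Ccl8-led cells, mostly of the takinib library, had the highest Nrp1 of these, 115 and 81.3 CPM, and the U90926-led takinib cells had 7.21 CPM (5.83 to 8.82). The class value therefore rests on different clusters in the 2 libraries.

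Other genes of these pathways were read from lists written with earlier results known. Of 16 further VEGF, angiopoietin and neuropilin pathway genes in the files, 10 had the minimum mean in endothelial-like cells. Of these, 1 was higher past 2-fold, Sema3a, a repulsive ligand of Nrp1 (32.7 and 118 CPM), and 1 lower, Nrp2, a co-receptor of VEGF-C (293 and 124 CPM). Over all genes 4.63% were past 2-fold in each direction, and the list median was log2 -0.10, against -0.11 for all genes. Flt4 was 146 and 154 CPM, Ptprb, the phosphatase that restrains Tie2, 1036 and 746 CPM, and Plxnd1 411 and 238 CPM. Angpt1, the activating Tie2 ligand, was read in fibroblast-like cells at 55.6 CPM in vehicle and 17.9 CPM in takinib.

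Genes known to respond to VEGF or to mark sprouting were mostly lower in takinib endothelial-like cells. Of 16 with the minimum mean, 7 were lower past 2-fold and 1 higher, against 4.63% of all genes in each direction. Their median was log2 -0.95, beside -0.11 for all genes and -0.72 for the 11 endothelial markers. The lower ones were Aplnr (363 and 81.1 CPM), Esm1 (252 and 61.2 CPM), Mcam (703 and 232 CPM), Nid2, Dll4 (159 and 64.0 CPM), Col4a1 (5314 and 2511 CPM) and Nos3, and the higher was Nr4a1 (30.8 and 114 CPM). The count was 5 without the 3 mixed groups, and also 5 per endothelial marker UMI. Esm1-led cells were 14.2% of the vehicle and 2.91% of the takinib class, and their part in the counts was not tested.

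Of 13 endothelial transcription factors 3 were lower past 2-fold (Lmo2, Ets1 and Hey1) and none higher, with a median of -0.33, against 4.63% of all genes lower. That count was 0 without the 3 mixed groups and 0 with a pseudocount of 50 CPM. In the class Erg was 146 and 105 CPM and Klf2, a flow-induced factor, 375 and 649 CPM. Of 14 hypoxia response genes 3 were higher past 2-fold in endothelial-like cells (Egln3, Bnip3 and Ero1l), against 4.63% of all genes, and none lower, with a median of 0.38. The same list had 5 of 14 higher in epithelial-like (median 0.89), 7 of 11 in fibroblast-like (median 1.21), 3 of 12 in macrophage-like (median 0.68) and 5 of 12 in neutrophil-like cells (median 0.83), none of them lower. All genes were higher past 2-fold at 3.1%, 4.46%, 4.02% and 6.57% in these 4 classes. Neutrophil markers were also higher in takinib, at 119 and 10232 CPM in epithelial-like, 154 and 10243 CPM in fibroblast-like and 321 and 8312 CPM in macrophage-like cells. Their part in the hypoxia counts was not tested. Vegfa, itself a hypoxia target, was not past 2-fold in these 4 classes. Bnip3 was 26.7 and 146 CPM and Egln3 10.4 and 80.6 CPM in epithelial-like cells.

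Across 23 sums of class and library, the genes most like each member in log CPM were listed as a description. The sums share 2 libraries, and classes of few cells have low counts. Kdr was most like Vwa1, Fat4, Apln and Ptprb (Pearson r 0.987 to 0.980), Tek like Meox1 and Grrp1 (0.997 and 0.995), and Tie1 like Grrp1 and Pcdh17 (0.996 and 0.993). Flt1 was most like Adgrf5 (0.980) and Angpt2 like Pcdh12 (0.986). Pgf was most like Gjc1 and Tbx3 (0.933 and 0.931), and Vegfc like Plscr2 (0.967). Vegfa had no close match, with Basp1 at 0.748, Tnfrsf23 at 0.709 and Hk2, a glycolytic kinase, at 0.668.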

How the data were processed

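The authors deposited raw UMI counts per gene and barcode. Per the file headers the matrices were written by Cell Ranger 4 (vehicle, 704261 barcodes, unfiltered) and cellranger 6.1.1 (takinib, 34158 barcodes of at least 500 UMIs), while the submitters' processing notes name Cell Ranger 2.1.1, STAR 2.0.4b, featureCounts 1.45 and mm10. Of the gene identifiers, 99.8% are in GENCODE M21. Members and lists were chosen with earlier results of these data known.

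Cells of at least 1000 UMIs, 500 genes and at most 20% mitochondrial UMIs were kept. Scrublet (scanpy 1.11.5) called 3.18% doublets in vehicle but 0.00373% in takinib, where the 6% with the highest scores were removed (314 and 1607 cells removed). Both libraries were clustered together (2000 variable genes without the members, 30 components, 15 neighbours, Leiden resolution 1). A cluster was named for the class with the highest marker score unless it had under 3 markers, a runner-up class reached 0.75 of the top score, or markers of another class led it. After seeing the data, lymphatic markers were counted as endothelial and a cluster led by Elane and Mpo was left unnamed.

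Counts were summed per class and library and given as CPM with exact Poisson intervals, exact conditional intervals for ratios and Clopper-Pearson intervals for shares. A count of 0 allows up to 3 counts. Log2 differences use 10 CPM as pseudocount, which understates changes of low genes. Genes with a mean of at least 20 CPM were compared in classes of at least 50 cells per library (perivascular-like with fewer), and a log2 difference past 1 was called. All 10 members are named, and other genes from the lists where called or of stated role. Names such as macrophage-like are rebuilt here, not the authors'. Of these steps, only the comparison of summed counts and its ratio intervals were tested on simulated data.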

Additional observations from a re-analysis of the deposited data

Results flagged for a closer look

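Vegfa differed between libraries in opposite directions across classes. Its log2 difference, takinib over vehicle, was -0.12 in epithelial-like cells, with an interval of the ratio below 1 (0.870 to 0.971). It was 0.49 in macrophage-like (ratio 1.36 to 1.54), 0.63 in fibroblast-like (1.36 to 1.97), 0.67 in B-like (1.12 to 2.88), 0.78 in T-like (1.14 to 3.85) and 1.01 in endothelial-like cells (1.57 to 4.46). Each class has 1 library per treatment, and the difference between classes was not tested. Neutrophil markers were higher in takinib too: 321 and 8312 CPM in macrophage-like, 154 and 10243 CPM in fibroblast-like and 705 and 37264 CPM in B-like cells. They were 573 and 17640 CPM in T-like, 458 and 25747 CPM in endothelial-like, and 119 and 10232 CPM in epithelial-like cells, where Vegfa was lower. Their part in the Vegfa differences was not tested. In the 5 classes with higher Vegfa the vehicle level was below that of free RNA in that library (95.04 CPM, 72.9 to 122). It was inside that interval in macrophage-like cells and below it in the others. Free RNA was itself close to the level of all kept vehicle cells (96.4 CPM). Under the alternatives the macrophage-like difference ranged from -0.19 to 0.98 and the fibroblast-like one from -0.52 to 0.85, each keeping its sign in 12 of 14, so the opposite direction does not hold in all of them.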

How the results depend on the processing

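Recomputing the results under the alternatives gave 576 values, of which 455 stayed within counting error of the reported difference or within 1.5 times the reported count. Of the 403 that are differences, 28 had the opposite sign. Of these, 23 belong to differences not past 2-fold, such as Angpt2 in endothelial-like (5 of 17) and Vegfa in monocyte-like (3 of 13), macrophage-like, fibroblast-like and neutrophil-like cells (2 each). The other 5 follow. Nrp1 in fibroblast-like cells was log2 0.66 with at least 2000 UMIs and 1000 genes (48 takinib cells) and 0.52 at Leiden resolution 2, where the class kept 1 fine cluster (54 takinib cells) and the other, of 295, had -1.31. With all UMIs in place of 1000 per cell, the share of cells with a UMI was higher in takinib by 2.27 percentage points for Kdr and 6.40 for Tek in endothelial-like cells and by 4.09 for Vegfa in neutrophil-like cells. The cause was not tested. Flt1, Kdr, Nrp1, Tek and Tie1 kept their direction in endothelial-like cells under all 17 alternatives, while Angpt2 ranged from -0.52 to 2.05.

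Counts of members past 2-fold moved as follows. With a pseudocount of 50 CPM they were 0 over all kept cells and 1 in endothelial-like cells, and the pathway list had 1, the transcription factors 0, and hypoxia genes 3 (epithelial-like) and 4 (fibroblast-like). With the median set to 0, the transcription factors had 1 and neutrophil-like hypoxia genes 9. With 50 counts as filter neutrophil-like cells had 1, and without a filter T-like and neutrophil-like cells had 1 each. Thinned, T-like and monocyte-like cells had 1 each and fibroblast-like cells 0. With female vehicle cells B-like had 2 and endothelial-like 6, and with male ones B-like had 2. With 2000 UMIs B-like had 1 and fibroblast-like 0. With 10% mitochondrial UMIs B-like, endothelial-like and monocyte-like had 1 each. Without doublet removal endothelial-like and neutrophil-like had 1 each, and at resolution 2 B-like had 1 and fibroblast-like 0. Without the 3 mixed groups, endothelial-like members had 1, sprouting genes 5 and transcription factors 0. Scaled to endothelial markers these were 1, 5 and 1, and hypoxia genes 5.

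The endothelial-like share differed by log2 -3.17 (2000 UMIs), -3.56 (10% mitochondrial UMIs) and -3.11 (without neutrophil-like and unnamed cells), and the perivascular-like share by -5.71 in the last. No paired analysis was possible because each group has 1 sample. Classes under 20 cells in a library gave no value under an alternative, such as neutrophil-like cells of female vehicle origin. Depth limits the takinib endothelial-like and perivascular-like values, which rest on 103 and 14 cells.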
